A study of Homo sapiens with 12 samples.

Results

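The comparison described here set 3 arrays of 22Rv1 cells treated with an inhibitor of ONECUT2 for 6 h against 3 arrays of vehicle-treated 22Rv1 cells. It covered every probe set that the platform annotation gives exactly 1 gene symbol, which was 41091 of the 54675 probe sets on the array. The 6 arrays were part of a series of 12, with 3 arrays each for vehicle and for 4 h, 6 h and 16 h of inhibitor. 22Rv1 is an established human prostate carcinoma line, grown here in RPMI-1640 with serum and antibiotics. The vehicle arrays carry no time in their labels, and the inhibitor is named only by the code 617, so vehicle and treated cultures cannot be said to have been matched for time in culture. The titles of the vehicle, 4 h and 6 h arrays also hold a number of unstated meaning, which the titles of the 16 h arrays lack. The labels state no dose. Nothing in the labels says whether the 3 arrays of a group came from separate cultures, so every p-value measures only how far these arrays scatter, which can be technical. Total RNA was hybridised to Affymetrix U133 Plus arrays after 3′ in vitro transcription labelling, and the values are log2 signals from the authors' GCRMA normalisation.

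ONECUT2 is a transcription factor with a cut domain and a homeodomain, known in prostate cancer for its association with neuroendocrine features. Short exposures to reactive or proteotoxic compounds are often read through a few stress programmes. NRF2 (NFE2L2) drives antioxidant genes such as HMOX1 and NQO1, ATF4 drives amino acid synthesis and stress genes, and the unfolded protein response drives chaperones of the endoplasmic reticulum (ER). On this platform a gene is measured by 1 or more probe sets, each a group of short oligonucleotides against 1 stretch of the transcript, usually near its 3′ end. Probe sets of the same gene can therefore report different transcript ends, retained introns or, for names ending in _s_at or _x_at, sequences shared with other transcripts.

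A probe set was tested when its mean over the 12 arrays reached 2.11, the median of all probe sets, which 22708 of the 41091 named probe sets did. The other 18383 stayed below that level and were not tested. The tested probe sets belonged to 12635 genes, each represented in the gene-level comparison by its brightest probe set. Of these genes, 5913 had 2 or more tested probe sets, which gave 10073 pairs of a brightest and a further probe set, here named the second probe set. All tests used limma over the 12 arrays, and "called" means a Benjamini-Hochberg adjusted p below 0.05 over all features of that test. The bacterial control probe sets whose transcripts were taken as absent reached at most 1.88 to 2.28 on single arrays, which was used as the level of no signal. All 7 measured prostate epithelial and 22Rv1 marker genes lay above it, from KLK3 at 4.14 to KRT18 at 11.29 in vehicle. The highest markers of other cell types were LUM at 4.10 for fibroblasts, CD2 at 2.57 for leukocytes and PECAM1 at 2.60 for endothelium. LUM was thus close to KLK3. In vehicle, 5 fibroblast, 3 leukocyte and 1 endothelial marker lay above the control level. CD3D, CD14, VWF, CDH5, COL1A2 and PDGFRB lay at or below the control level. The summed level of the 10 fibroblast markers was 23.9 to 25.2 in vehicle and 24.9 to 25.0 at 6 h.

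At the level of genes, few calls were made at 6 h. limma called 4 of 12635 genes (0.0317%), and 1039 genes (8.22%) had an unadjusted p under 0.05, 537 higher and 502 lower. The median change over all genes was 0.012 on the log2 scale. For 14.4% of genes the 3 treated arrays did not overlap the 3 vehicle arrays, 8.25% higher and 6.14% lower. The 4 called genes were MAT2A, GDF15, PTGS1 and QRSL1.

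MAT2A, which makes the methyl donor S-adenosylmethionine, read 9.73, 9.71 and 9.75 in the vehicle arrays and 10.28, 10.29 and 10.25 at 6 h. Every treated array lay above every vehicle array, and the arrays within each group differed by little. MAT2A rose by 0.54 ± 0.075 (SE; 1.45-fold, limma adjusted p = 0.049). Its second probe set, at 2.49 ± 0.058 in vehicle and 2.87 ± 0.12 at 6 h (SD, n = 3), was also higher in every treated array but was not called (limma adjusted p = 0.077).

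GDF15, a secreted stress cytokine and a target of ATF4 and p53, read 8.71, 8.72 and 8.79 in vehicle and 9.18, 9.28 and 9.25 at 6 h. The groups did not overlap, and GDF15 rose by 0.50 ± 0.071 (SE; 1.41-fold, limma adjusted p = 0.049). The same probe set stood 0.80 above vehicle at 4 h and 3.19 above it at 16 h, against the same 3 vehicle arrays. A second GDF15 probe set, 229868_s_at, did not follow, with a change of 0.12 ± 0.12 (SE) and overlapping groups.

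PTGS1, the constitutive cyclooxygenase, read 2.23, 2.29 and 2.27 in vehicle and 2.69, 2.80 and 2.87 at 6 h. The treated arrays were higher, but the vehicle values sat at the level of the absent controls, so the size of the rise of 0.52 ± 0.070 (SE; limma adjusted p = 0.049) has no firm base. PTGS1 was at -0.07 and 0.00 against vehicle at 4 h and 16 h.

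QRSL1, a subunit of the mitochondrial glutamyl-tRNA amidotransferase, was the only gene called lower in the gene-level test. Its brightest probe set, 218949_s_at, read 6.99, 6.96 and 6.92 in vehicle and 6.32, 6.48 and 6.35 at 6 h, with no overlap. It fell by 0.57 on the log2 scale (SE 0.066, limma adjusted p = 0.026). The other 3 tested QRSL1 probe sets changed by -0.06, -0.10 and -0.03, and their groups overlapped. These 4 calls rested on all 12 arrays. Leaving out vehicle array 1, vehicle array 3, or treated array 1 or 3 left 0 called genes, leaving out treated array 2 left 1, and leaving out vehicle array 2 gave 18, of which 16 were lower.

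**Figure D1:**
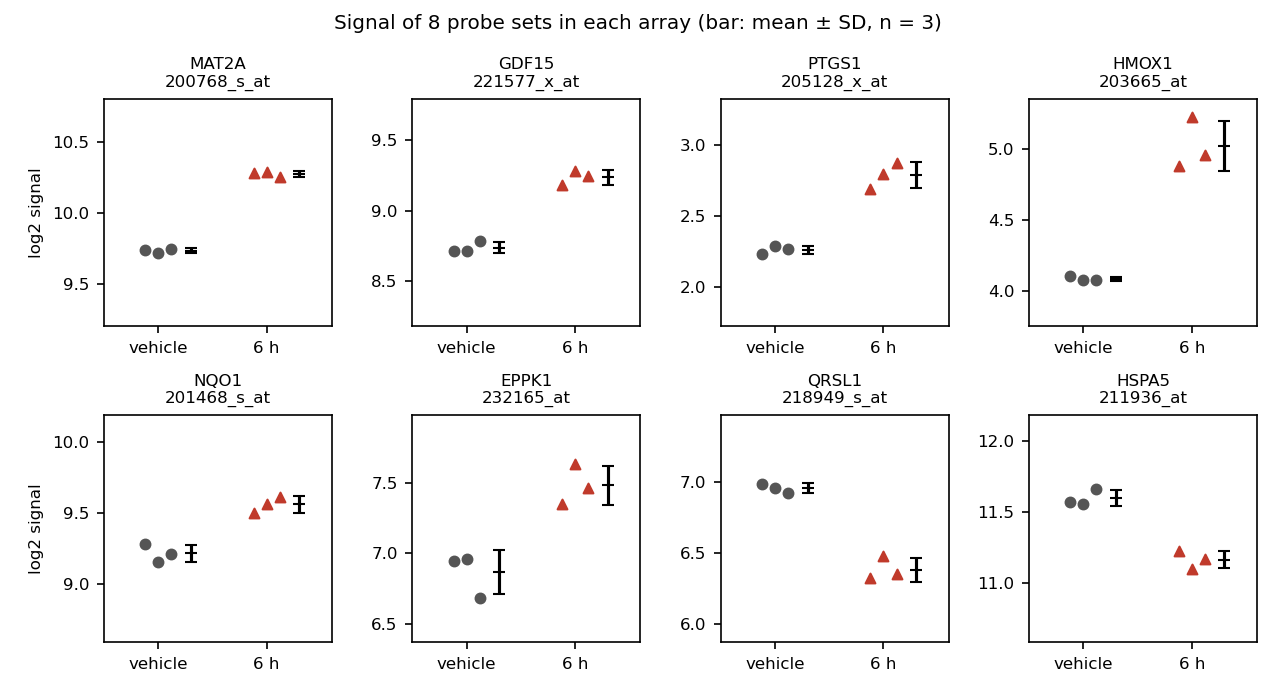
Log2 signal (y axis) of 8 probe sets in the 3 vehicle arrays (grey circles) and the 3 arrays at 6 h (red triangles), with bars for mean ± SD and an equal axis span in each panel. HMOX1 has the widest step, from 4.09 to 5.02, and in all 8 panels the groups do not overlap.

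When all named probe sets were tested together, 209 of 22708 (0.92%) were called, and the calls were uneven in direction. Only 17 rose (0.0749%) and 192 fell (0.846%). The 17 rises belonged to 14 genes and were small, from 0.32 to 0.94. The falls ranged from -0.35 to -2.26 with a median of -0.83, and 65 of them were at least 2-fold. Of the 192 falls, 179 were second probe sets (1.78% of all second probe sets) and 13 were the brightest probe set of their gene (0.103% of these). The counts of called probe sets moved with single arrays. They were 26, 641 and 2 without vehicle array 1, 2 or 3, and 75, 13 and 4 without treated array 1, 2 or 3. With only the 6 arrays compared in the fit, 1 probe set was called, and with quantile normalisation 63 were.

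HMOX1, heme oxygenase 1, had the widest rise. It read 4.10, 4.08 and 4.08 in vehicle and 4.88, 5.22 and 4.96 at 6 h, so the lowest treated array stood clear of all vehicle arrays. HMOX1 rose by 0.94 ± 0.14 (SE; 1.91-fold, limma adjusted p = 0.019 over probe sets), while the gene-level adjusted p was 0.065. It stood at 1.16 above vehicle at 4 h and 6.70 above it at 16 h.

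NQO1, a quinone reductase, was called in 2 of its 3 tested probe sets. The brightest read 9.39, 9.47 and 9.40 in vehicle and 9.70, 9.72 and 9.82 at 6 h. It rose by 0.32 ± 0.068 and the next by 0.35 ± 0.066 (SE; limma adjusted p = 0.0495 and 0.039). The dimmest, 201467_s_at, changed by 0.31 ± 0.17 (SE) and was not called, although its treated arrays also lay above all vehicle arrays.

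EPPK1, the cytolinker epiplakin, was called in all 3 of its tested probe sets. 232165_at read 6.95, 6.96 and 6.69 in vehicle and 7.35, 7.63 and 7.46 at 6 h. The 3 probe sets rose by 0.61, 0.52 and 0.44 on the log2 scale (limma adjusted p = 0.021, 0.046 and 0.027), and stood at 0.88, 0.90 and 0.67 above vehicle at 4 h. MGLL, a monoglyceride lipase, rose by 0.51 ± 0.10 (SE, limma adjusted p = 0.046), and its second probe set changed by 0.49 ± 0.16 without being called. DUSP8, a phosphatase of MAP kinases, rose by 0.54 ± 0.11 (SE, limma adjusted p = 0.046), while its second probe set changed by 0.0079 and overlapped.

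The remaining called rises were a second probe set each of OSBPL10 at 0.57 and CREB5 at 0.50, and the brightest probe sets of ERRFI1 at 0.49, RAB32 at 0.44, FGB at 0.43 and ANXA2 at 0.41. The OSBPL10 probe set averaged 2.47 over the 12 arrays, near the control level. The brightest OSBPL10 probe set, at 6.34, changed by 0.07 and was not called. ERRFI1 is a feedback inhibitor of the EGF receptor, RAB32 a small GTPase, FGB the fibrinogen beta chain and ANXA2 a calcium-dependent membrane-binding protein. All except OSBPL10 were named after their values were seen, because they were fewer than 6.

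HSPA5 (BiP), the main Hsp70 of the ER, was among the 13 brightest probe sets that fell. The promoters of ER chaperones are known for the ER stress response element (ERSE), which is CCAAT, 9 bases of any kind and CCACG, bound by ATF6 and NF-Y. The 250 bases before the start site of HSPA5 and HSP90B1 are shown because these genes had the lowest p-values of the ER chaperones. They come from RefSeq on GRCh38.p14, at chr9:125241344-125241593 on the minus strand for HSPA5 and chr12:103930160-103930409 on the plus strand for HSP90B1, and capitals mark each ERSE on either strand.
HSPA5: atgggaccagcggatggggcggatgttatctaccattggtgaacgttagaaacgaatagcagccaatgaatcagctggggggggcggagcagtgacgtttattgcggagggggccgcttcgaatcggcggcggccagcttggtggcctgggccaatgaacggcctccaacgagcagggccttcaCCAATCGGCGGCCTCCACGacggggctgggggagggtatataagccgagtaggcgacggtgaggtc
HSP90B1: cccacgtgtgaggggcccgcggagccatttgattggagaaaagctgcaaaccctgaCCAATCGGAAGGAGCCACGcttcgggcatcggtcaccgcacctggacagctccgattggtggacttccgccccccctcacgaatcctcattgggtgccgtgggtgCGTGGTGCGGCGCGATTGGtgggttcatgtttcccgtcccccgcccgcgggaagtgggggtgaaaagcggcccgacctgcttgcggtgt
HSPA5 holds 1 match and HSP90B1 holds 2, one on each strand. Across 35116 RefSeq promoters, with 1 chromosome left out, 26 (0.074%) hold a match in this window. Of 25 tested ER chaperone genes with a promoter in that table, 7 hold one in at least 1 of their promoters, namely CALR, CANX, CRELD2, ERO1B, HSP90B1, HSPA5 and PDIA6. The first count is of promoters and the second of genes, so the 2 shares are not in the same unit. A match describes letters only.

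HSPA5 read 11.57, 11.56 and 11.66 in vehicle and 11.22, 11.10 and 11.17 at 6 h. The groups did not overlap, and HSPA5 fell by 0.43 on the log2 scale (SE 0.080, limma adjusted p = 0.035 over probe sets and 0.150 over genes). Its second probe set, 230031_at, was lower in every treated array as well, at -0.36 ± 0.12 (SE, limma adjusted p = 0.193). Against the same vehicle arrays HSPA5 stood at -0.19 at 4 h and 0.52 at 16 h.

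HSP90B1 (GRP94), the ER form of Hsp90, read 10.46, 9.89 and 10.21 in vehicle and 9.73, 9.44 and 9.16 at 6 h. The treated arrays were all lower, but the vehicle arrays spread widely, and the change of -0.74 ± 0.16 (SE) was not called (limma adjusted p = 0.219 over genes). Its second probe set, 216450_x_at, fell by 1.14 on the log2 scale (SE 0.20, limma adjusted p = 0.030 over probe sets). Both names end in _x_at, so signal from related sequences cannot be told apart from HSP90B1 itself.

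As a group, 27 of 29 listed ER chaperones were tested, and 19 were lower and 8 higher. None was called over genes. The groups did not overlap for 8 lower genes (29.6%, against 6.14% of all genes) and 1 higher gene. Their median change was -0.04, against 0.012 over all genes. The array medians were 0.01, 0.04 and 0.01 in vehicle and -0.08, -0.05 and -0.02 at 6 h, each taken as the deviation from the mean of the 6 arrays. Besides HSPA5 and HSP90B1, the lowest p-values belonged to the disulfide isomerases PDIA4 at -0.27 ± 0.069 and PDIA3 at -0.38 ± 0.11 (SE). PDIA4 read 9.92, 9.82 and 9.85 in vehicle and 9.70, 9.53 and 9.57 at 6 h, and neither isomerase was called (limma adjusted p = 0.268 and 0.309). The 37 second probe sets of the list had a median change of -0.13, against -0.03 over all second probe sets. The list median was -0.08 at 4 h and 0.20 at 16 h, against the same vehicle arrays.

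Degradation and regulation genes of the ER did not separate as a list. Of 21 tested, 6 were lower (28.6%, against 6.14% of all genes) and 3 higher (14.3%, against 8.25%) without overlap, and the median was -0.03 with overlapping array medians. The mannosidase-like EDEM3 had all 3 tested probe sets lower without overlap, at -0.46, -0.19 and -1.16, none of them called.

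Genes of the NRF2 programme stood on the other side. Of 38 listed, 34 were tested, 27 were higher and 7 lower, and 12 (35.3%) were higher without overlap, against 8.25% of all genes, while 0 were lower without overlap. limma called 0 of the 34 over genes, and 8 had an unadjusted p under 0.05, all higher. The list median was 0.05, with array medians of -0.07, -0.04 and -0.06 in vehicle and 0.00, 0.07 and 0.07 at 6 h. HMOX1 and NQO1 are described above. MAFF, a small MAF partner of NRF2, read 7.74, 7.72 and 7.77 in vehicle and 8.01, 8.17 and 8.27 at 6 h. TXNRD1, thioredoxin reductase, read 11.23, 11.20 and 11.21 in vehicle and 11.50, 11.57 and 11.47 at 6 h. For both genes every treated array lay above every vehicle array. The changes of 0.40 ± 0.089 for MAFF and 0.30 ± 0.067 for TXNRD1 (SE) were not called (limma adjusted p = 0.219 for each over genes). The list median was 0.03 at 4 h and 0.93 at 16 h.

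ATF4 and amino acid stress genes had a median of 0.05 as well. Of 33 listed, 30 were tested, 22 were higher and 8 lower, and 9 were higher without overlap (30%, against 8.25% of all genes) and 1 lower (3.33%, against 6.14%). GDF15 was called, and it also belongs to the p53 list. The array medians were -0.05, 0.00 and -0.04 in vehicle and 0.01, 0.04 and 0.06 at 6 h. The cystine transporter SLC7A11, which the NRF2 list holds too, changed by 0.29 ± 0.082, the pseudokinase TRIB3 by 0.22 ± 0.073 and the transcription factor ATF3 by 0.22 ± 0.087 (SE), none called. DDIT3 (CHOP), a pro-apoptotic factor downstream of ATF4, changed by -0.12 ± 0.082 (SE) with overlapping groups. The array medians of this list overlapped without vehicle array 1, with each array centred on its median, and with probe sets averaged per gene.

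Proteasome and respiratory chain genes had small differences, mostly toward higher values in their brightest probe sets. Of 31 tested proteasome genes, 27 were higher, 8 without overlap (25.8%, against 8.25% of all genes), and 0 were lower without overlap. Their median was 0.05, with array medians of -0.02, -0.03 and -0.05 in vehicle and -0.01, 0.04 and 0.03 at 6 h. The cap subunit PSMD6 changed by 0.11 ± 0.054 and the core subunit PSMA3 by 0.11 ± 0.056 (SE). PSMD1, another cap subunit, changed by 0.20 ± 0.091 in its brightest probe set, while its second probe set was lower in every treated array at -0.14 ± 0.071 (SE). Of 49 respiratory chain genes, 39 were higher, 11 without overlap (22.4%, against 8.25%), and 0 were lower without overlap, with a median of 0.04. The complex I subunits NDUFS3 and NDUFB3 changed by 0.11 ± 0.065 and 0.08 ± 0.068 (SE), the complex III subunit UQCRQ by 0.09 ± 0.061 and the ATP synthase subunit ATP5PD by 0.07 ± 0.054. The 19 second probe sets of the proteasome list had a median change of -0.03, opposite in sign to the brightest, and the 38 of the respiratory chain list one of 0.04. No member of either list was called (all limma adjusted p above the threshold), and 0 had an unadjusted p under 0.05. In both lists the array medians overlapped with each array centred on its median, with probe sets averaged per gene, and with probe sets outside _s_at and _x_at preferred. Against the same vehicle arrays, the proteasome median was -0.02 at 4 h and 0.16 at 16 h. The respiratory chain median was -0.04 at 4 h and -0.19 at 16 h.

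Metallothioneins and zinc genes were the second list whose treated medians all lay lower. Of 14 tested, 11 were lower, 5 without overlap (35.7%, against 6.14% of all genes), and the median was -0.08, with 0 called and 1 at an unadjusted p under 0.05. SLC30A1, a zinc exporter, read 6.91, 6.93 and 6.90 in vehicle and 6.52, 6.74 and 6.75 at 6 h, a change of -0.24 ± 0.093 (SE, limma adjusted p = 0.504). MT1E, MT1F and MT1X changed by -0.13, -0.13 and -0.09, but the metallothioneins are near-identical paralogs on _x_at probe sets and count as overlapping measurements. Their second probe sets changed by -0.04, -0.13 and -0.0057, with overlapping groups.

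These lists need the background. Of 39 lists, 7 (17.9%) had array medians that did not overlap, which is near the 14.4% of single genes, and they included the leukocyte markers, of which 3 were tested, all near the control level. CD2, CD79A and FCER1G changed by 0.12, 0.18 and 0.17, with overlapping groups. Immediate early genes, the first responders to signalling, had the highest list median at 0.11, with 11 of 38 (28.9%, against 8.25% of all genes) higher and 1 (2.63%, against 6.14%) lower without overlap. Their array medians overlapped, since treated array 1 stood below vehicle array 3. MYC, one of them, was lower in every treated array at -0.22 ± 0.068 (SE, limma adjusted p = 0.363). Within the 6 h group, array 1 was the lowest of the 3 for NRF2, ATF4, proteasome and respiratory chain genes.

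**Figure D2:**
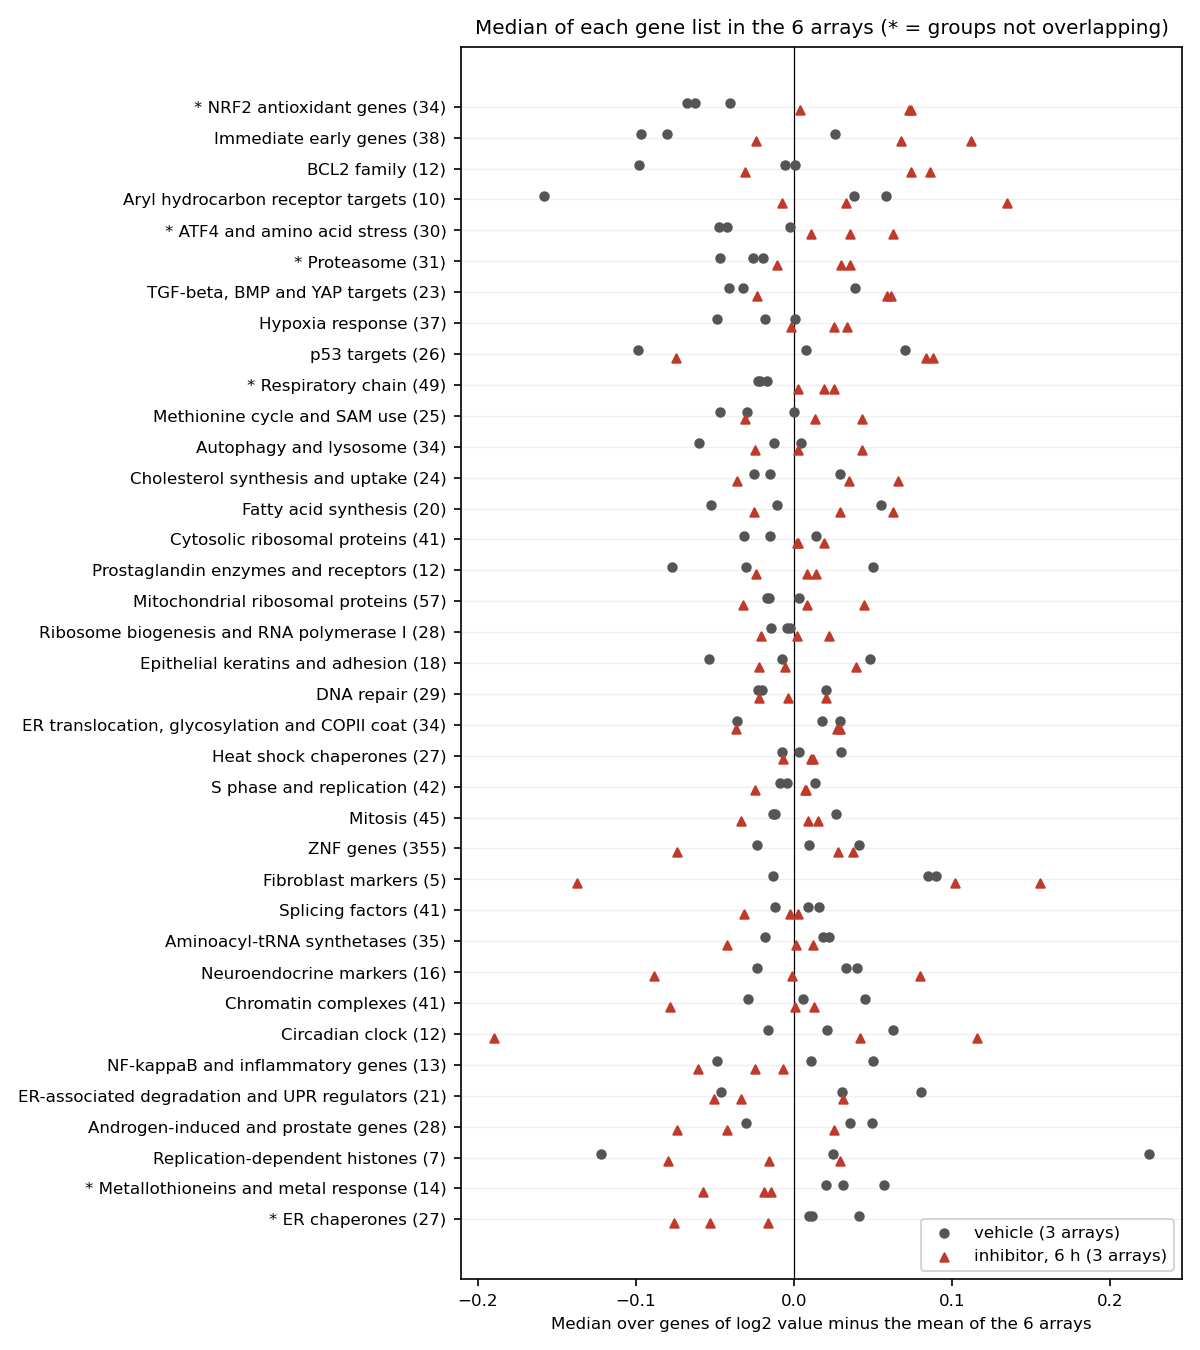
Median of each gene list of at least 5 tested genes (number in brackets) in each array, as log2 deviation from the mean of the 6 arrays (x axis), for vehicle (grey circles) and 6 h (red triangles). A star marks lists whose groups do not overlap, from ER chaperones at the bottom to NRF2 antioxidant genes at the top, and the star-marked medians lie between -0.08 and 0.07.

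ONECUT2 itself was not called in any of its 4 tested probe sets. Its brightest probe set averaged 6.71 ± 0.12 in vehicle and 6.71 ± 0.13 at 6 h (SD, n = 3), a change of 0.0037 ± 0.10 (SE, limma adjusted p = 0.997). A further pair of probe sets changed by 0.09 and -0.05. The dimmest, 207676_at, read 2.61, 2.27 and 2.71 in vehicle and 2.27, 1.86 and 2.24 at 6 h, near the control level. Unrounded, its lowest vehicle array lay just above its highest treated array, and the change was -0.41 ± 0.12 (SE, limma adjusted p = 0.167). KLK3, which encodes prostate-specific antigen, changed by -0.15 ± 0.14 (SE) with overlapping groups, and the 28 tested androgen-induced and prostate genes had a median of -0.04, with 1 higher (3.57%, against 8.25% of all genes) and 3 lower (10.7%, against 6.14%) without overlap.

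The probe sets of a gene often differed in direction. Few of these changes were called, so the direction of most is uncertain. Over all 10073 pairs, the second probe set changed in the same direction as the brightest in 53.1%. Where the brightest had an unadjusted p under 0.05, 537 of 856 pairs (62.7%) shared the direction. Both probe sets were free of overlap in 392 pairs, of which 266 went the same way and 126 opposite ways. The median change was 0.012 for brightest and -0.03 for second probe sets, and 15.6% of second probe sets lay lower without overlap.

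The difference between the 2 probe sets was tested directly, array by array. Of 10073 pairs, 201 (2%) were called, and in 186 (1.85%, from 174 genes) the second probe set changed less or fell more than the brightest, with 15 (0.149%, from 14 genes) the other way. In the 186 pairs the brightest probe set changed by a median of 0.04, from -0.22 to 0.47. The second changed by a median of -0.89, and 121 of the 186 were called in the probe-set test. In that test 0 of the 186 brightest probe sets were called, against 25 of 12635 (0.198%) over all brightest probe sets. The pairs were picked by this difference, so the gap between the 2 medians follows in part from the choice.

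**Figure D3:**
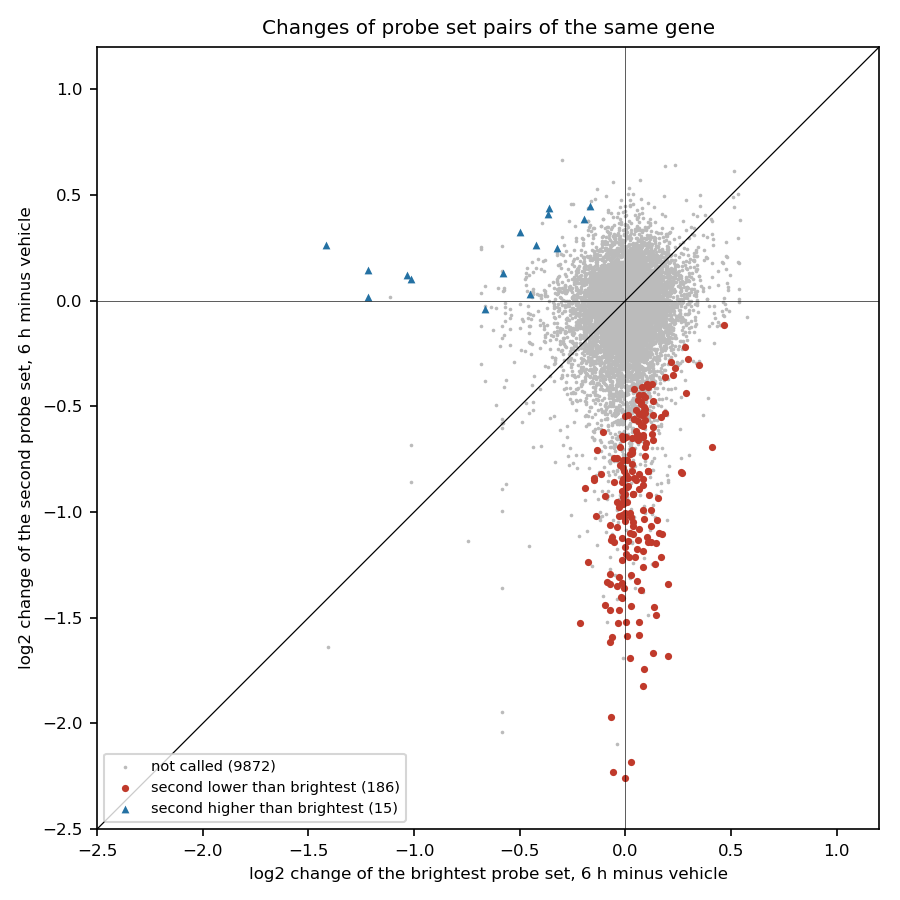
Log2 change at 6 h of the second probe set (y axis) against that of the brightest probe set of the same gene (x axis), 1 point per pair, with the line of equal change. The 186 called pairs with a lower second probe set (red circles) hang below 0 on the y axis near 0 on the x axis, and the 15 others (blue triangles) lie to the left.

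The widest gap was in ASPM, a spindle protein of dividing cells. Its second probe set 232238_at read 7.40, 5.28 and 6.54 in vehicle and 4.31, 4.24 and 3.90 at 6 h, while the brightest, 219918_s_at, read 9.58, 9.50 and 9.43 against 9.48, 9.60 and 9.44. The first fell by 2.26 on the log2 scale (SE 0.42, limma adjusted p = 0.036) and the other changed by -0.0015. Another ASPM probe set, 239002_at, fell by 1.01 (SE 0.19, limma adjusted p = 0.035).

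UHMK1, a kinase with an RNA-recognition-like domain, had the lowest p-value of all probe sets. 227740_at read 5.70, 5.49 and 5.52 in vehicle and 3.87, 3.82 and 3.54 at 6 h, and fell by 1.83 on the log2 scale (SE 0.15, limma adjusted p = 0.00083). Unlike ASPM, its vehicle arrays lay close together. A further UHMK1 probe set, 235003_at, fell by 1.18 (SE 0.22, limma adjusted p = 0.035), and the brightest, 224691_at, changed by 0.08 ± 0.076 (SE).

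Other pairs with a wide difference came from genes of different roles. SUPT16H, a histone chaperone subunit of FACT, read 6.54, 4.08 and 5.71 in vehicle and 3.24, 3.40 and 3.00 at 6 h with 233827_s_at, while 217815_at changed by -0.06. SF3B1, a core splicing factor, had 5 tested probe sets. The dim 201070_x_at read 5.82, 4.65 and 4.80 in vehicle and 3.75, 3.61 and 3.51 at 6 h and fell by 1.47 on the log2 scale (SE 0.25, limma adjusted p = 0.027), and 214305_s_at changed by -1.27 ± 0.29 (SE, limma adjusted p = 0.067). The 3 others of SF3B1, including the 2 brightest, changed by -0.07, -0.0060 and 0.06. NUP58, a nucleoporin, read 6.12, 5.25 and 6.11 in vehicle and 4.68, 4.42 and 4.00 at 6 h with 223984_s_at and fell by 1.46 (SE 0.22, limma adjusted p = 0.019), while its brightest changed by -0.03. CLIP1, which binds growing microtubule ends, fell by 2.18 (SE 0.43, limma adjusted p = 0.042) with 1558924_s_at and changed by 0.02 with its brightest. ITPRID2 and MYO6, a motor toward microfilament minus ends, fell by 1.74 and 1.44 in 1 probe set each, with changes of 0.09 and 0.03 in the brightest. For ITPRID2, treated arrays 2 and 3 lay below the level of the absent controls, so the size of its fall has no firm base. Of the 192 called falls, 19 reached that level in 1 or more treated arrays, with DHX9 and SCYL2 among them, and 2 in all 3.

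TOP1, IQGAP1, NIPBL, LIMA1 and NFAT5 were called as pairs without a call of either probe set alone. For TOP1, DNA topoisomerase I, the second probe set read 8.41, 6.31 and 7.49 in vehicle and 5.67, 5.53 and 5.10 at 6 h, and the brightest changed by -0.07. In the 4 other genes the second probe set changed by -1.68, -1.67, -1.49 and -1.59 in that order and the brightest by 0.20, 0.13, 0.14 and 0.0096. C5orf24, SPAG9, DHX9, CCDC186, CPNE3, SCYL2 and UGCG had a second probe set that fell by 1.44 to 1.69 on the log2 scale.

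**Figure D4:**
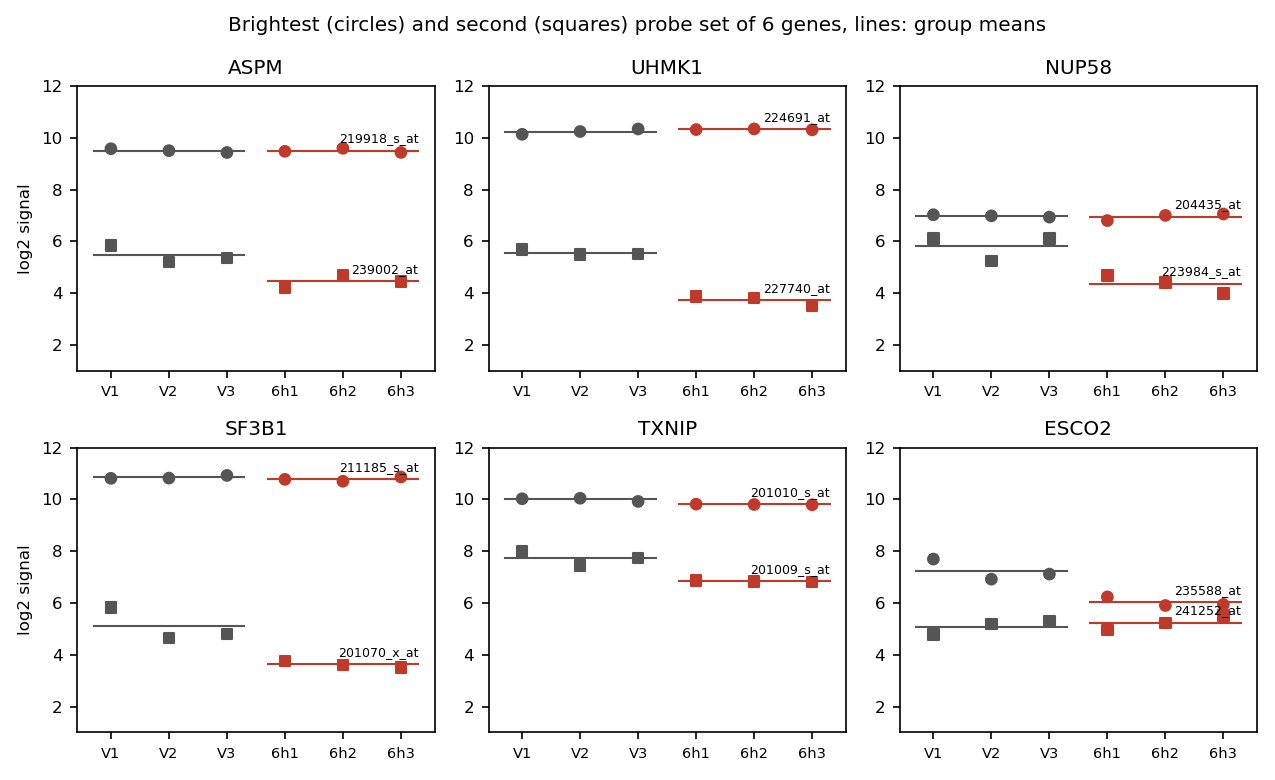
Log2 signal (y axis) of the brightest (circles) and a second (squares) probe set of 6 genes in vehicle arrays V1 to V3 (grey) and 6 h arrays (red), with group means as lines. The second probe set steps down in ASPM, UHMK1, NUP58, SF3B1 and TXNIP, while in ESCO2 the brightest does.

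In the 15 pairs of the opposite kind, the brightest probe set was the lower one. ESCO2, which acetylates cohesin, read 7.69, 6.92 and 7.11 in vehicle and 6.23, 5.90 and 5.94 at 6 h with its brightest probe set and fell by 1.22 on the log2 scale (SE 0.19, limma adjusted p = 0.021). Its 2 second probe sets changed by 0.14 and 0.02. BCL7A, a subunit of the BAF chromatin complex, fell by 1.03 (SE 0.20, limma adjusted p = 0.037), and its second changed by 0.12. ING3, a reader of a histone mark, fell by 0.50 (SE 0.10, limma adjusted p = 0.046) in its brightest probe set, while 231863_at was higher in all treated arrays at 0.33 ± 0.082 (SE). ZNF800, GOLGA2, IDNK and NMT2 had a brightest probe set at -1.42, -1.01, -0.36 and -0.37 and a second at 0.26, 0.10, 0.44 and 0.41, none of these called alone.

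In a few genes every tested probe set lay on the same side. Of 5913 genes with 2 or more tested probe sets, 23 (0.389%) had all of them higher without overlap and 54 (0.913%) had all lower. EPPK1, MGLL and MAT2A led the first kind, followed by MAFF, by STMN4, a stathmin, and by ELF3, an epithelial ETS factor, whose 3 probe sets changed by 0.28, 0.47 and 0.33. FAM111B, a protease-domain protein, led the second kind, with 10.28, 8.90 and 9.65 in vehicle and 8.55, 8.15 and 7.90 at 6 h in its brightest probe set. Both FAM111B probe sets were lower, at -1.41 ± 0.33 and -1.64 ± 0.39 (SE), but vehicle array 2 stood near the treated arrays and neither was called (limma adjusted p = 0.073 and 0.072). HSP90B1, DHX9, ZC3H7A and EDEM3 were in this group as well. TXNIP, a thioredoxin-binding arrestin, had 3 probe sets lower. The brightest read 10.02, 10.04 and 9.92 in vehicle and 9.81, 9.80 and 9.79 at 6 h and changed by -0.19 ± 0.064 (SE, limma adjusted p = 0.201), while the 2 dimmer fell by 0.89 and 0.94 (limma adjusted p = 0.017 and 0.040).

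The called pairs shared several measured features. The share called with a lower second probe set was 0.424% of 1414 pairs whose levels were within 0.5 of each other and 3.51% of 1622 pairs more than 5 apart. Of the 4599 pairs less than 2 apart, 28 were called with a lower and 14 with a higher second probe set, and 1 was called when only these pairs were fitted. Among the 179 second probe sets that fell, 54.7% had names ending in _s_at or _x_at, against 44.2% of all second probe sets. Those that fell averaged a median level of 4.92, against 3.83 for all. The place of each probe set within its transcript was not analysed here.

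The vehicle arrays also differed among themselves in these pairs. In 140 of the 186 (75.3%), vehicle array 1 was highest and vehicle array 2 lowest of the 3, against 24.2% of all pairs. In the same pairs the median deviation from the vehicle mean was 0.28, -0.26 and -0.0056 for vehicle arrays 1, 2 and 3 and -0.79, -0.90 and -1.02 for treated arrays 1, 2 and 3. Over all pairs the values were 0.03, -0.03 and 0.0010 in vehicle and -0.04, -0.05 and -0.06 at 6 h. The median SD between vehicle arrays was 0.29 in the called pairs and 0.17 in all pairs. Counts of these called pairs without vehicle array 1, 2 or 3 were 10, 526 and 12, and without treated array 1, 2 or 3 they were 152, 8 and 1.

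The ribosomal control signals differed between the groups too. The 18S ribosomal controls averaged 9.69, 9.30 and 9.87 in vehicle and 8.86, 8.55 and 8.51 at 6 h, lower in every treated array by 0.98 on average. The exact two-sided permutation p was 0.1, the smallest that 3 against 3 can give. The 28S control was lower by 0.35 on average, with the same exact permutation p of 0.1. The ACTB 3′ minus 5′ difference, a measure of RNA integrity and labelling, was 2.82, 2.73 and 2.87 in vehicle and 2.71, 2.97 and 3.38 at 6 h, and the groups overlapped (exact permutation p = 0.5). Its difference between groups was 0.22, and it was 0.04 without treated array 3 and 0.37 without treated array 1. The same difference for GAPDH went the other way, from -0.46 in vehicle to -0.51 at 6 h on average, with overlapping groups (exact permutation p = 0.2). The part of RNA quality and of ribosomal RNA in the falls was not tested.

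**Figure D5:**
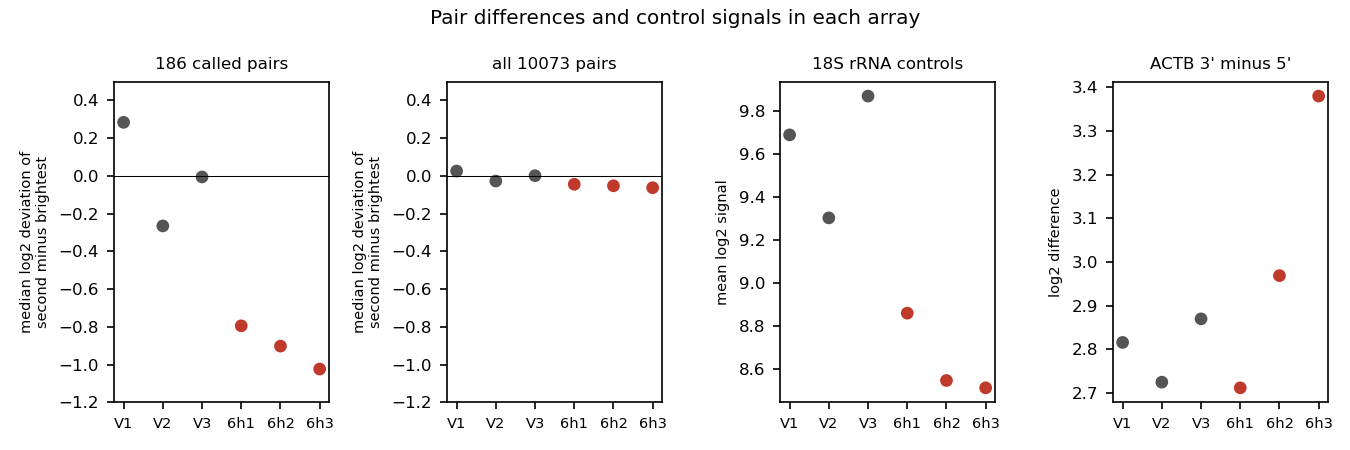
Median log2 deviation from the vehicle mean of the 186 called pairs and of all 10073 pairs, mean log2 signal of the 18S controls and the ACTB 3′ minus 5′ log2 difference (y axes), in vehicle arrays V1 to V3 (grey) and 6 h arrays (red). The called pairs lie at 0.28 to -0.26 in vehicle and at -0.79 to -1.02 at 6 h, and the 18S signal is lower in all 3 treated arrays.

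The other time points gave values for the same pairs, against the same vehicle arrays. The 186 pairs had a median difference of -0.67 at 4 h, where 0 were called (limma, 1364 of all pairs at an unadjusted p under 0.05), and of -0.89 at 16 h, where 153 were called in the same direction and 2 in the other. At 16 h, 2140 pairs were called with a lower and 1309 with a higher second probe set. In the 16 h arrays the ACTB 3′ minus 5′ difference was 4.08, 4.18 and 4.00, and the 18S controls averaged 11.04, 11.16 and 10.96. Both lay above the values of all vehicle arrays. The GAPDH 3′ minus 5′ difference, at -0.39, -0.47 and -0.42, overlapped vehicle. The part of RNA quality and of ribosomal RNA in the 16 h differences was not tested. Set directly against 4 h, the 6 h arrays had 0 called pairs (limma, 750 at an unadjusted p under 0.05), while 10 of 22708 single probe sets (0.044%) were called.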

How the data were processed

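The deposited log2 values of 12 arrays were used, which the authors normalised with GCRMA, per the submitters' processing notes. They ran from -0.49 to 13.8, with array medians of 2.10 to 2.15. Genes were named from the platform annotation, with symbols updated through RefSeq. Of 54675 probe sets, 1801 had several symbols and 11777 none. limma 3.58.1 in R 4.3.3 was fitted with 4 groups, leaving 8 residual degrees of freedom. The fits were tested on simulated data. The number of arrays limits the precision.

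The members, lists and tests were chosen with earlier results of these data known. Named were the called genes, the 8 largest rises and 15 largest falls among called probe sets without overlap, 4 members of each separated list, the 8 positive and 12 negative called pairs with the largest difference, 6 genes in each direction whose probe sets agreed, and a fixed set (ONECUT2, KLK3, MYC and stress genes). Names outside this rule, including the 6 h against 4 h calls, are marked. Alternatives were the normalisation, level filter, prior, array weights, choice of probe set, replicate number as a block, the arrays fitted and leaving out each array.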

Additional observations from a re-analysis of the deposited data

Results flagged for a closer look

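The 6 h arrays were also set against the 4 h arrays, in the fit over all 12 arrays, whose other groups enter the estimate of the spread. limma called 10 of 22708 probe sets (0.044%), and 0 with only the 6 h and 4 h arrays in the fit. The 10 were 9 lower and 1 higher at 6 h, with each difference given as 6 h minus 4 h on the log2 scale, and they were named after their values were seen, apart from ATF3, UHMK1 and PTGS1. The brightest probe sets of the transcription factors ATF3 and EGR1 differed by -0.82 and -0.64, and second probe sets of KLF6 and JUN by -0.72 and -0.49. The phosphatase DUSP10 differed by -0.48, the YAP target AMOTL2 by -0.63, the sterol regulator INSIG1 by -0.67 (a second probe set) and the orphan receptor ESRRG by -0.87. The UHMK1 probe set 227740_at differed by -1.01. PTGS1 was the only one higher, by 0.59. Leaving out any of the 3 arrays at 4 h, or treated array 3 at 6 h, left 0 of these calls.

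Probe sets without a single gene symbol were left out of the comparisons. With them added, 24 of 4598 were called at 6 h against vehicle (0.522%), 22 lower and 2 higher, next to 162 named probe sets (0.713%) in the same fit.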

How the results depend on the processing

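Among the named genes, probe sets and pairs that were run under the alternatives, no call changed direction. The 10 probe sets of 6 h against 4 h and the other named probe sets were followed only as counts. Many counts changed, and the cause was not tested. The number of called genes (4) was 0 with arrays centred on their medians, 0 without the level filter, 0 with only the 2 groups in the fit, 8 with probe sets outside _s_at and _x_at preferred, 10 with array weights, 61 with probe sets averaged per gene, 63 with a trended and robust prior and 196 when any tested probe set could count. The 209 called probe sets became 63 (49 of them second probe sets that fell, of 179) with quantile normalisation, 68 (57) outside _s_at and _x_at, 570 (446) with the trended prior and 1 (1) with only the 2 groups. The 201 called pairs (186 with a lower second probe set) became 109 (97) outside _s_at and _x_at, 1 (1) with a level gap under 2 and 5 (5) with only the 2 groups, and stayed at 201 with centring, which cancels in a difference within an array. The 10 calls of 6 h against 4 h became 6 with centring, 6 without the filter, 21 with the stricter filter, 53 with the trended prior, 42 with array weights and 0 with only the 2 groups.

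The replicate number was not taken as a pairing in the main fit. Deviations of same-numbered vehicle and 6 h arrays correlated at 0.12, -0.0045 and 0.14. Those of differently numbered arrays correlated at -0.14 to 0.02, so the same-numbered arrays 1 and 3 had the highest values. Whether arrays of the same number shared a batch was not tested. With the replicate block 4 genes were called, all lower, of which QRSL1 was 1 of the 4 called without it, while MAT2A, GDF15 and PTGS1 had a limma adjusted p of 0.0549, 0.0548 and 0.0552. The other calls with the block were 409 probe sets (339 second probe sets that fell), 469 pairs (421 with a lower second probe set) and 3 for 6 h against 4 h. The 7 lists with separate array medians became 13 with quantile normalisation and 4 with centring. With quantile normalisation the medians were 0.0786 for ATF4, 0.0838 for NRF2, -0.0562 for metallothionein and 0.0261 for respiratory chain genes. The respiratory chain median was 0.0234 with centring, and with probe sets averaged the ER chaperone median was -0.0949 and the ATF4 median 0.0206.

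Leaving out single arrays gave 0 to 18 genes, 2 to 641 probe sets, 2 to 543 second probe sets that fell, 1 to 576 pairs, 1 to 526 pairs with a lower second probe set, 0 to 5 calls of 6 h against 4 h and 7 to 17 separate lists. The list medians ranged from -0.0527 to -0.0209 for ER chaperones, 0.0350 to 0.0739 for ATF4, 0.037 to 0.0909 for NRF2, -0.0907 to -0.0552 for metallothionein, 0.0188 to 0.0427 for respiratory chain and 0.0427 to 0.0560 for proteasome genes. The 3 arrays per group limit the precision.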
